A study of Mus musculus with 7 samples.

Results

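Microvillous cells of the olfactory epithelium are represented here by 10 genes listed for tuft-like cells or ionocytes: Trpm5, Gnat3, Plcb2, Itpr3, Pou2f3, Chat, Foxi1, Ascl3, Cftr and Coch. They were taken as a fixed list and matched by gene name, and all 10 were found among the 54532 genes measured. Their transcripts were followed through 7 RNA-seq libraries of olfactory epithelium cells sorted by fluorescence from young mice. OMP-GFP mice gave the mature olfactory sensory neurons, at postnatal days 2, 7 and 16 (P2, P7 and P16). Neurog1-GFP mice gave the intermediate progenitor cells, at P3, P7, P9 and P16. GFP, the green fluorescent protein, thus marks the cells by the promoter of a mature neuron gene in the one line and of a neuronal progenitor gene in the other. Each library was made from a pool of purified cells, with 1 library per age, and the libraries of different ages stand as replicates of their population (n = 3 mature neuron and n = 4 progenitor libraries). The labels do not say that the pools came from separate animals, so the error behind each p-value is the variation from library to library, age included, and may be technical in part. Each population came from its own mouse line, and the effects of both cannot be told apart.

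Microvillous cells are sparse, non-neuronal cells at the apical surface of the olfactory epithelium. The tuft-like kind is represented here by genes of the taste-type cascade. In taste cells a G protein activates a phospholipase C, which releases calcium through an inositol trisphosphate receptor. Calcium then opens the cation channel Trpm5. Which microvillous cells of this tissue use each step was not tested. Tuft-like cells depend on the transcription factor Pou2f3, and many of them make acetylcholine with the enzyme Chat. The ionocyte kind moves ions across the epithelium, and is known by the transcription factors Foxi1 and Ascl3 and by the chloride channel Cftr. Neither kind was the target of the sort, and a sorted pool can carry RNA of cells outside its gate. In such bulk samples fewer cells of a type and less RNA per cell cannot be told apart.

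The libraries held 24203965 to 25930727 counts on genes. Neurog1 was 0.84 to 1.85 TPM in mature neurons and 291.89 to 698.08 TPM in progenitors (TPM is scaled for transcript length and to a fixed total per library). Omp, the mature neuron gene for which the other line is named, was 1065.85 to 1630.45 TPM in mature neurons and 1322.77 to 2371.41 TPM in progenitors, and its log2 fold was -0.41 (SE 0.24, edgeR adjusted p = 0.179). Over the whole marker lists, the 11 mature neuron markers summed to 10000 to 14243 TPM in mature neurons and 4134 to 6239 TPM in progenitors. The 6 progenitor markers summed to 10.3 to 24.8 TPM and to 574 to 1114 TPM. The 7 markers of sustentacular cells, the supporting cells of the epithelium, summed to 3035 to 4560 TPM in mature neurons and 2152 to 4061 TPM in progenitors. Sustentacular RNA was thus high in both sorted populations. The 15 leukocyte markers reached 291 TPM in mature neurons at P16 against 59.8 and 38.4 TPM at P2 and P7, and 61.4 TPM in progenitors at P16 against 20.2 to 23.5 TPM at the other ages. The summed 5 Bowman gland markers were also highest in mature neurons at P16, at 859 TPM against 136 to 201 TPM. Bpifb9a alone held 780.26 TPM of that sum, against 95.3 and 77.56 TPM at P2 and P7. Muc5b was also highest at P16, but at only 0.22 TPM. Aqp5 was lowest there (50.07, 43.23 and 27.25 TPM in order of age), Ltf was highest at P2, and Sox9 stayed at 0.58 to 0.68 TPM. The 6 markers of olfactory ensheathing glia summed to 30.8 to 67.0 TPM in mature neurons and 7.1 to 22.2 TPM in progenitors, without overlap. Of the tested markers, 8 of 13 for leukocytes and 4 of 6 for ensheathing glia were called higher in mature neurons and 0 lower. So were 3 of 4 for respiratory epithelium, 2 of 5 for Bowman gland and 2 of 7 for sustentacular cells, again with 0 lower. Of the 6 horizontal basal cell markers, all tested, 0 were called in either direction. They summed to 8.41 to 18.54 TPM in mature neurons and 14.02 to 28.26 TPM in progenitors. Of all tested genes 28.8% were higher and 30% lower. The part of those cells in the members' values was not tested. Every marker of the mature neuron, progenitor, sustentacular, leukocyte, Bowman gland and ensheathing glia lists had counts in some library. Of the 6 respiratory epithelium markers, which summed to 533 to 699 TPM in mature neurons and 322 to 410 TPM in progenitors, the secretory cell gene Scgb1a1 was at 0 in all 7 libraries.

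The promoters were read from RefSeq (GRCm38.p6), which held 9 of the 10 genes; Pou2f3 had no entry. The 250 bases before each start were searched on both strands for the octamer ATGCAAAT, a motif bound by POU factors such as Pou2f3, and for the forkhead motif TGTTTAC, bound by the Foxi1 family. The octamer was found in Itpr3, 27 bases before the start on the minus strand, and in 1.6% of all 32851 promoters of the same length (526). The forkhead motif was in no member promoter and in 3.17% of all (1040). The promoters of both members that were lower in mature neurons, Itpr3 (chr17:27057054-27057303, plus strand, octamer match in capitals) and Coch (chr12:51593091-51593340, plus strand, no match), are as follows.
Itpr3: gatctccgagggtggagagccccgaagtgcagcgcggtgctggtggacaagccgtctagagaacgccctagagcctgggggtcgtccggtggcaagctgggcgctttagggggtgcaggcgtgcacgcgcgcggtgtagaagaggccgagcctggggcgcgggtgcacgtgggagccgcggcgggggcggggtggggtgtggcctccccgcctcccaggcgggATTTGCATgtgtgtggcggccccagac
Coch: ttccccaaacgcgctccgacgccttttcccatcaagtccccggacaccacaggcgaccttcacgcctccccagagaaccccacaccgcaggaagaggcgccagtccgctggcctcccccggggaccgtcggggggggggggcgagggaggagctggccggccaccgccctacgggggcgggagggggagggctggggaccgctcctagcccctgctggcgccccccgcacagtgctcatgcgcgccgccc
A match is a description of these letters and not a site in use. Both sequences were rich in G and C, at 72% and 74.8%.

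The genes differed widely in level. In progenitors the order by mean TPM was Coch (69.0 ± 16.9, SD, n = 4), Ascl3 (5.75 ± 1.55), Pou2f3 (4.43 ± 1.32), Foxi1 (3.53 ± 0.78), Trpm5 (1.64 ± 0.27), Itpr3 (1.14 ± 0.15), Cftr (0.86 ± 0.32), Plcb2 (0.24 ± 0.12), Chat (0.155 ± 0.148) and Gnat3 (0.0825 ± 0.101). Neighbours in that order whose library ranges overlapped were Ascl3 and Pou2f3, Pou2f3 and Foxi1, Itpr3 and Cftr, Plcb2 and Chat, and Chat and Gnat3. In mature neurons the order was Coch (16.9 ± 12.7, SD, n = 3), Pou2f3 (8.84 ± 1.60), Ascl3 (3.94 ± 0.46), Foxi1 (2.20 ± 0.98), Trpm5 (1.91 ± 0.26), Cftr (1.32 ± 0.43), Itpr3 (0.633 ± 0.132), Plcb2 (0.147 ± 0.133), Gnat3 (0.0467 ± 0.0808) and Chat (0.0267 ± 0.0462). Here the ranges of Coch and Pou2f3, Foxi1 and Trpm5, Trpm5 and Cftr, Plcb2 and Gnat3, and Gnat3 and Chat overlapped. Coch, the most abundant member, still had 2967 genes above it by mean TPM in progenitors and 8069 in mature neurons.

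**Figure D1:**
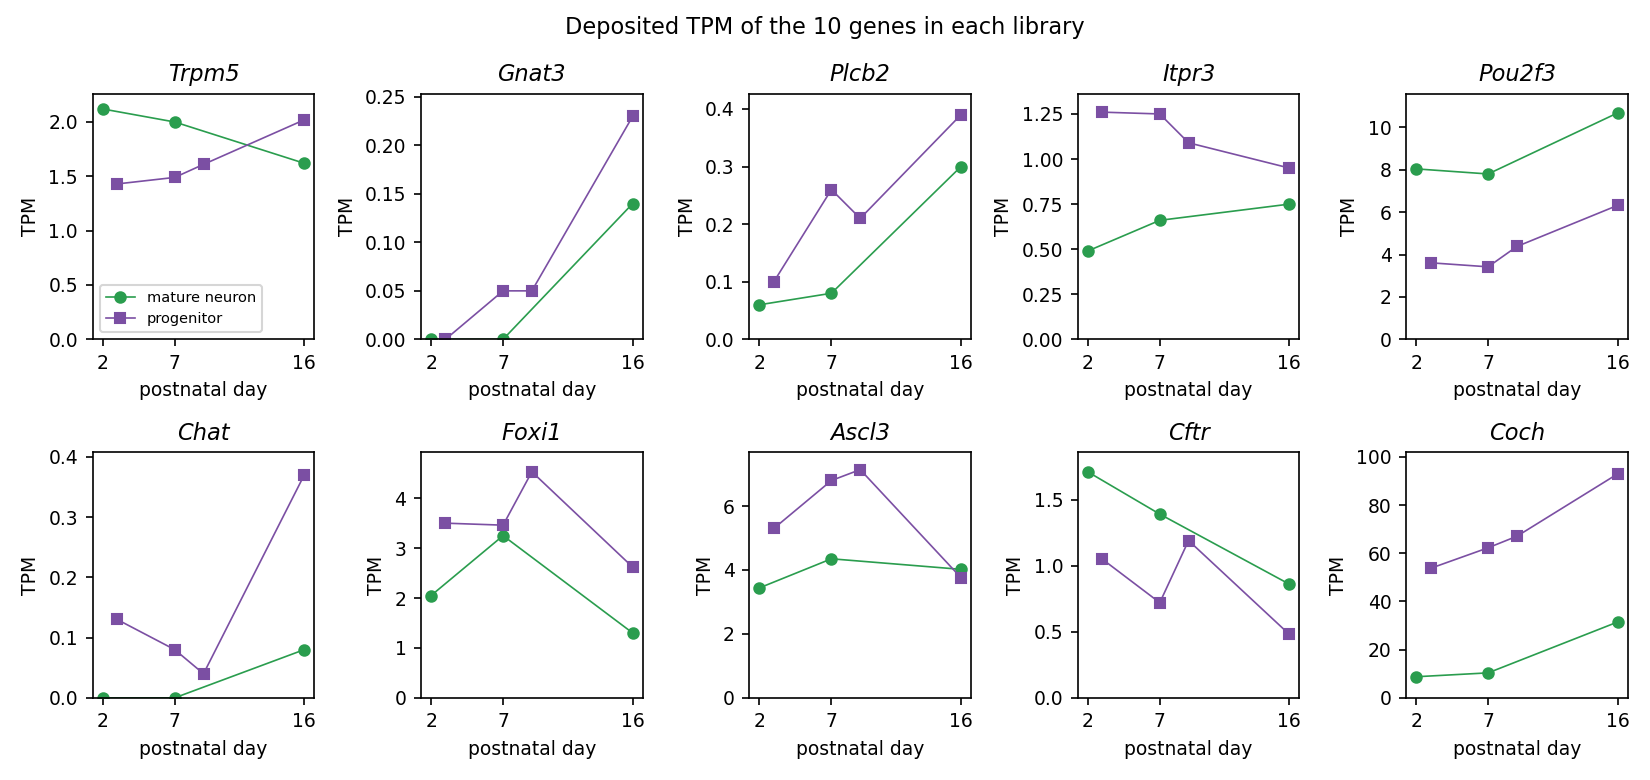
Deposited TPM (vertical axis, linear from 0, scaled separately in each panel) of the 10 genes against postnatal day; circles are the 3 mature neuron libraries and squares the 4 progenitor libraries, joined by lines within a population. Coch lies between 53.74 and 92.95 TPM in progenitors and between 8.75 and 31.48 TPM in mature neurons, while Pou2f3 lies higher in mature neurons at 7.80 to 10.68 TPM.

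The comparison of the populations asked which of these genes differed between mature neurons and progenitors. Pou2f3 was higher in mature neurons, and Coch and Itpr3 were lower. The other 5 tested members, Trpm5, Plcb2, Foxi1, Ascl3 and Cftr, did not pass an adjusted p of 0.05. Chat and Gnat3 were under the filter on low counts and were not tested. Thus 1 of 8 tested members was higher and 2 were lower, beside 58.8% of all 17975 tested genes called in either direction (5180 higher, 5385 lower). The members' median log2 fold was -0.29 and that of all tested genes 0.01. On the TPM scale, where limma on log2(TPM + 1) put 38.7% of its calls higher in place of 49%, the median over all genes moved to -0.11. The libraries of the populations did not overlap in CPM (counts scaled to library size with TMM factors) for 4 of the 8, beside 61.4% of all tested genes. Both shares of the members were below those of all genes, a gap that was not tested. It rests on only 8 genes, several of them with few counts, and is not read as a trait of the list.

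**Figure D2:**
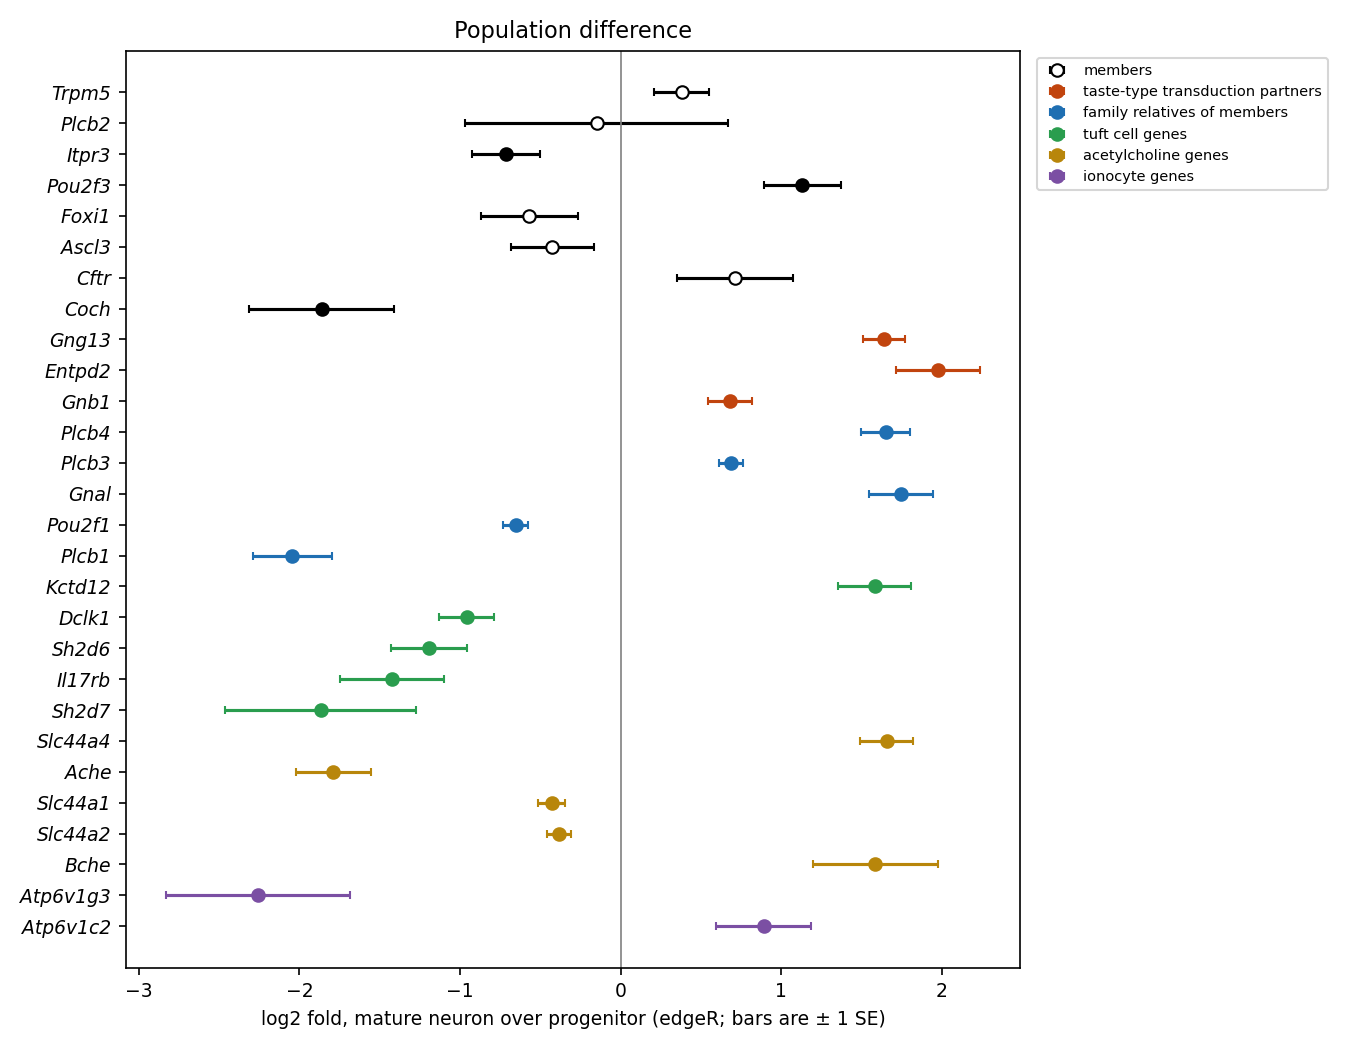
Log2 fold of mature neuron over progenitor (horizontal axis, edgeR, bars ± 1 SE) for the 8 tested members in black and for the related genes named in the text, coloured by list; filled points have an adjusted p under 0.05. Pou2f3 at 1.13, Itpr3 at -0.71 and Coch at -1.86 are the filled black points.

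Trpm5, the cation channel at the end of the taste-type cascade (chr7:143069153-143094642, GRCm38, minus strand), was 5.02, 5.23 and 4.75 CPM in the mature neurons of P2, P7 and P16. In progenitors it was 3.48, 3.65, 3.59 and 4.66 CPM at P3, P7, P9 and P16. All mature neuron libraries lay above all progenitor libraries, although the P16 progenitors came close to the P16 mature neurons. The log2 fold was 0.38 (SE 0.17, edgeR adjusted p = 0.0857), and 2 of 16 alternatives called it. Without the P16 progenitor library it was 0.48 with an adjusted p of 0.0461, while leaving out any other single library gave an adjusted p of 0.0905 to 0.199. In TPM the populations overlapped, at 1.62 to 2.12 TPM in mature neurons and 1.43 to 2.02 TPM in progenitors. The counts were few, 94 to 124 per library, so counting alone gave a coefficient of variation of 9.22% in mature neurons, above the 4.87% observed. Trpm5 also shares exon sequence with Tssc4 on the opposite strand, which had 803 to 1298 counts per library. Since the strand setting of the counting is not given, the part of those reads in the Trpm5 values was not tested. Tssc4 itself was 39.33 to 47.03 TPM in mature neurons and 51.64 to 56.91 TPM in progenitors.

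Itpr3, the type of inositol trisphosphate receptor that taste and tuft cells use (chr17:27057304-27122223, plus strand; promoter above), was 2.87, 3.87 and 4.58 CPM in the mature neurons of P2, P7 and P16. It was 7.12, 6.64, 5.81 and 5.18 CPM in progenitors at P3, P7, P9 and P16. The populations did not overlap, and lay furthest apart at the youngest ages and nearest at P16. The log2 fold was -0.71 (SE 0.21, edgeR adjusted p = 0.0180). The call was lost without the mature neuron library of P2 (log2 -0.55, adjusted p = 0.0605) or of P7 (log2 -0.73, adjusted p = 0.0501), and in a fit on the shared ages P7 and P16 alone with age as a block (log2 -0.47, edgeR adjusted p = 0.211). Its antisense partner Itpr3os was at 0 counts in every library.

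Plcb2, the phospholipase C of the cascade (chr2:118707517-118728438, minus strand), which blood cells express as well, was 0.06, 0.08 and 0.30 TPM in the mature neurons of P2, P7 and P16. In progenitors it was 0.10, 0.26, 0.21 and 0.39 TPM at P3, P7, P9 and P16. In CPM the progenitors of P7 and P9 stood in the other order, at 0.16 and 0.55. Plcb2 was highest at P16 in both populations, the age at which the leukocyte markers were highest in each. At that age the leukocyte markers were 291 TPM in mature neurons and 61.4 TPM in progenitors, while Plcb2 was 0.30 and 0.39 TPM. Plcb2 over the leukocyte markers ranged 11 times over the libraries, against 6.5 times for Plcb2 alone. The part of leukocyte RNA in Plcb2 was not tested. These values rest on 2 to 20 counts per library. The log2 fold between the populations was -0.15 (SE 0.82, edgeR adjusted p = 0.886), and from the summed counts (42 in progenitors and 25 in mature neurons) the ratio of progenitor over mature neuron was 1.11, with an exact 95% interval for counting error only of 0.664 to 1.91.

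Gnat3, the alpha subunit gustducin of the taste G protein (chr5:17962549-18019834, plus strand), had 0, 0 and 2 counts in the mature neurons of P2, P7 and P16 and 0, 1, 1 and 5 counts in progenitors at P3, P7, P9 and P16. In both populations the P16 library held the most. The ratio of progenitor over mature neuron was 2.32 with an interval of 0.442 to 22.9, so no difference was detectable at this depth. A count of 0 allows up to 3 counts in such a library.

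Pou2f3, the transcription factor that tuft cells require (chr9:43123939-43210369, minus strand), was 12.8, 12.3 and 18.3 CPM in the mature neurons of P2, P7 and P16. It was 5.56, 4.97, 6.58 and 9.28 CPM in progenitors at P3, P7, P9 and P16. Every mature neuron library lay above every progenitor library, and within each population the P16 library was the highest. The means were 14.5 ± 3.3 CPM (SD, n = 3) and 6.60 ± 1.91 CPM (SD, n = 4), and the log2 fold was 1.13 (SE 0.24, edgeR adjusted p = 0.00402). It was called under all 16 alternatives, with log2 folds of 0.87 to 1.34. The ratio of Pou2f3 over Trpm5 was 3.79, 3.90 and 6.59 in mature neurons and 2.52, 2.30, 2.72 and 3.13 in progenitors, in TPM and in order of age, so the factor was the more abundant transcript in every library.

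Chat, which makes acetylcholine (chr14:32408203-32465989, minus strand), had 0, 0 and 2 counts in the mature neurons of P2, P7 and P16. It had 6, 4, 3 and 5 counts in progenitors at P3, P7, P9 and P16. No mature neuron library reached the lowest progenitor library, but all values lay near the floor of 3 counts, and in TPM the populations overlapped (0.08 TPM in the P16 mature neurons, 0.04 to 0.37 TPM in progenitors). The ratio of progenitor over mature neuron, 18 counts against 2, was 5.97 with an interval of 1.43 to 53.1, and in the fit without a low count filter the log2 fold was -2.39 (SE 0.93, edgeR adjusted p = 0.0749).

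Foxi1, the forkhead factor of ionocytes (chr11:34204338-34208089, minus strand), was 3.21, 4.72 and 2.05 CPM in the mature neurons of P2, P7 and P16 and 5.0, 4.86, 6.21 and 3.68 CPM in progenitors at P3, P7, P9 and P16. The populations overlapped, and in both the P16 library was the lowest. The log2 fold was -0.57 (SE 0.30, edgeR adjusted p = 0.136). It was called in 1 of 16 alternatives, without the P7 mature neuron library, the one that overlapped (log2 -0.90, adjusted p = 0.0394). Without the P16 mature neuron library it was -0.32 with an adjusted p of 0.321.

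Ascl3, a basic helix-loop-helix factor of the same cells (chr7:109727465-109731726, minus strand), was 1.52, 1.87 and 1.80 CPM in the mature neurons of P2, P7 and P16. In progenitors it was 2.19, 2.72, 2.85 and 1.54 CPM at P3, P7, P9 and P16. The progenitors were higher except at P16, where the library fell inside the range of the mature neurons. The log2 fold was -0.43 (SE 0.26, edgeR adjusted p = 0.190), and no alternative called it. In mature neurons its variation, 10.7%, was below the 15.7% that counting alone gives at 36 to 44 counts per library.

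Cftr, the chloride channel (chr6:18170687-18322768, plus strand), was 6.96, 5.49 and 3.25 CPM in the mature neurons of P2, P7 and P16. It was 3.85, 2.56, 4.51 and 1.84 CPM in progenitors at P3, P7, P9 and P16. The P16 library was the lowest in each population, and the P16 mature neurons lay inside the progenitor range. The log2 fold was 0.71 (SE 0.36, edgeR adjusted p = 0.119). It was called in 3 of 16 alternatives, among them the fit without the P16 mature neuron library, the one inside that range (log2 0.96, adjusted p = 0.0344), and the age-blocked fit on P7 and P16 (log2 0.97, adjusted p = 0.0334). Without the P2 mature neuron library it was 0.45 with an adjusted p of 0.362. Its direction was thus opposite to those of Foxi1, Ascl3 and Coch, of which only Coch passed the test. The ratio of Cftr over Foxi1 in TPM was 0.834, 0.428 and 0.662 in mature neurons and 0.300, 0.208, 0.263 and 0.183 in progenitors, with no overlap. Its antisense partner Gm15592 had 0 counts in every library.

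Coch, which encodes the secreted matrix protein cochlin (chr12:51593341-51605771, plus strand; promoter above), was 14.4, 16.1 and 52.1 CPM in the mature neurons of P2, P7 and P16. It was 79.2, 89.5, 94.7 and 137 CPM in progenitors at P3, P7, P9 and P16. The populations did not overlap, and in each the P16 library was the highest. The means were 27.5 ± 21.3 CPM (SD, n = 3) and 100 ± 25.3 CPM (SD, n = 4), and the log2 fold was -1.86 (SE 0.45, edgeR adjusted p = 0.00747). Without the P16 mature neuron library the log2 fold was -2.71. Its counts, 342 to 3639 per library, left counting error at 1.94% to 3.93%, far under the observed variation of 25.3% in progenitors and 77.2% in mature neurons. Coch did not keep a fixed proportion to the ionocyte factors: Coch over Ascl3 in TPM was 2.54, 2.38 and 7.83 in mature neurons and 10.1, 9.16, 9.39 and 24.7 in progenitors, highest at P16 in each.

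**Figure D3:**
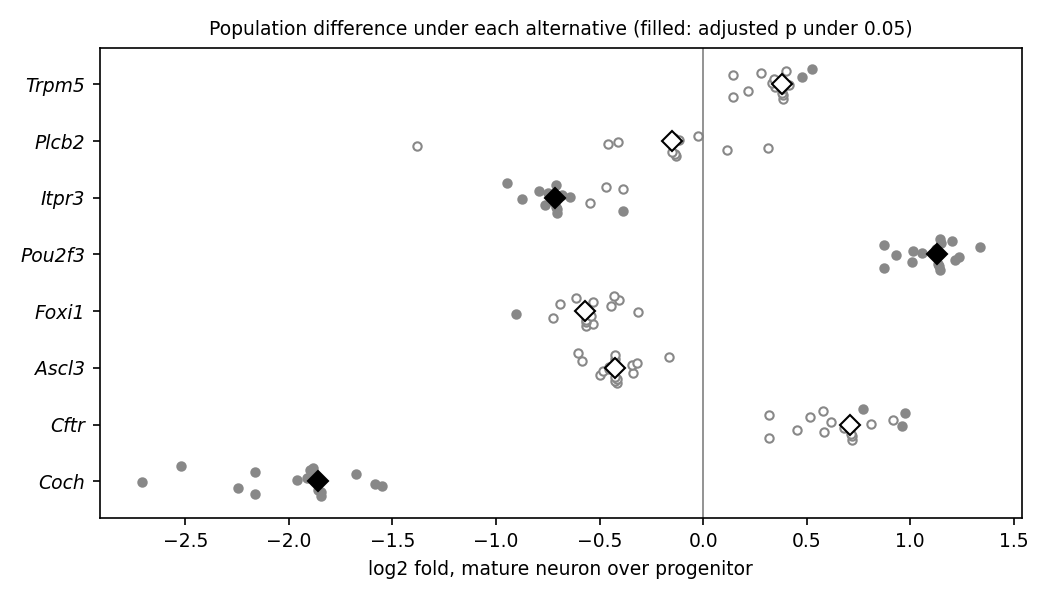
Log2 fold of mature neuron over progenitor (horizontal axis) for each tested member as reported (diamonds) and under the alternatives of processing (circles, up to 16 per gene, offset vertically for visibility); filled symbols have an adjusted p under 0.05. Pou2f3 and Coch are filled throughout, Itpr3 in 12 of 16 alternatives, and Plcb2 lies on both sides of 0.

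Age was tested as a slope on log2 of the postnatal day, shared by both populations. Each age had 1 library per population, so no single age was tested. No gene passed in edgeR (0% of 17975; 3746 at an unadjusted p under 0.05, of which 4 were members), while DESeq2 called 1523 and limma on log2(TPM + 1) called 0. The 4 members were Coch, at 0.48 log2 units per doubling of age (SE 0.11, edgeR unadjusted p = 0.00243, adjusted p = 0.0796), Plcb2 at 0.91 (edgeR adjusted p = 0.137), Pou2f3 at 0.21 (adjusted p = 0.205) and Cftr at -0.33 (adjusted p = 0.210). Trpm5, Itpr3, Foxi1 and Ascl3 had slopes of 0.05, 0.05, -0.13 and -0.0018. The Coch slope had an adjusted p of 0.000526 in DESeq2 and of 0.258 without the P16 mature neuron library, where it was 0.25. The test of a difference between the age slopes of the populations also called 0% of genes in edgeR (1075 at an unadjusted p under 0.05, DESeq2 11, limma 0). Itpr3 was the member at an unadjusted p under 0.05, with a slope higher by 0.42 in mature neurons (edgeR adjusted p = 0.806).

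Most other genes of the taste-type cascade were too low to test. Of 15 transduction partners 5 could be tested, 3 were higher and 0 lower in mature neurons (median log2 fold 0.68, against 0.01 for all tested genes). Beside this list and the next ones, 28.8% of all tested genes were higher and 30% lower. The 3 higher partners were Gng13, the G protein gamma subunit that olfactory neurons also use (4787 to 5267 TPM in mature neurons and 1388 to 1937 TPM in progenitors, log2 1.64), Gnb1, a widely expressed beta subunit (log2 0.68), and Entpd2, an enzyme that degrades extracellular ATP (log2 1.97). The bitter receptor genes Tas2r131 and Tas2r138 and the channel gene Calhm1 were at 0 in all 7 libraries. Among 16 family relatives of the members, 11 were tested, 5 were higher and 4 lower (median 0.52). Gnal, the olfactory G protein and relative of Gnat3, was higher (log2 1.74), as were the phospholipases Plcb4 (log2 1.65) and Plcb3 (log2 0.68). Plcb1 was lower (log2 -2.05), and so was the POU factor Pou2f1 (log2 -0.65). The other POU relative, Pou2f2, named after its values were seen, was higher (log2 0.80, edgeR adjusted p = 0.0113), as Pou2f3 was.

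Of 25 further tuft cell genes 19 were tested, 1 was higher and 4 were lower in mature neurons (median -0.30). Of all tested genes 28.8% were higher and 30% lower. Lower were the kinase gene Dclk1 (30.71 to 57.23 TPM against 106.31 to 125.93 TPM, log2 -0.96), which neurons also express, the adaptor genes Sh2d6 (log2 -1.19) and Sh2d7 (log2 -1.87), and the cytokine receptor gene Il17rb (log2 -1.43). Sh2d6 was 1.60 to 3.57 TPM in mature neurons and 3.59 to 7.70 TPM in progenitors, and Il17rb was 0.37 to 0.67 TPM and 1.20 to 1.78 TPM, without overlap in either. Sh2d7 overlapped between the populations, at 0.12 to 0.56 TPM and 0.24 to 1.43 TPM, and lost its call under 8 of 16 alternatives, among them each fit without the P2 or P7 mature neuron library (adjusted p = 0.0824 and 0.0869) or the P7, P9 or P16 progenitor library (0.0576, 0.0544 and 0.0547). Kctd12, a subunit of GABA-B receptors, was higher (log2 1.58). The succinate receptor gene Sucnr1 was at 0 in every library. Most of the 19 tested tuft cell genes were not called. The called ones other than Kctd12 lay in the opposite direction to Pou2f3, at a share below the 30% of all genes. The sum of the 4 transduction members overlapped between the populations, at 2.67 to 2.81 TPM in mature neurons and 2.79 to 3.59 TPM in progenitors.

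Of 10 acetylcholine genes 5 were tested, 2 were higher and 3 lower (median -0.38). Ache, acetylcholinesterase, was lower (3.49 to 5.15 TPM against 9.75 to 15.64 TPM, log2 -1.79), and the choline transporter-like genes Slc44a1 and Slc44a2 were lower by small amounts (log2 -0.43 and -0.38). Slc44a4, of the same family, was higher (log2 1.66), as was Bche, butyrylcholinesterase, at 0.27 to 0.75 TPM against 0.10 to 0.27 TPM (log2 1.58). Slc18a3, the vesicular acetylcholine transporter encoded within the Chat locus, was at 0 in every library. Of 17 further ionocyte genes 15 were tested, 1 was higher and 1 lower (median 0.27). Both encode subunits of the proton pump: Atp6v1g3 was lower, at 0.03 to 0.36 TPM against 0.80 to 2.27 TPM (log2 -2.26), and Atp6v1c2 was higher, at 21.64 to 42.30 TPM against 11.69 to 25.10 TPM (log2 0.89). Atp6v1c2 overlapped between the populations and lost its call under 6 of 16 alternatives, among them each fit without the P2 or P7 mature neuron library (adjusted p = 0.107 and 0.0840) or the P7 progenitor library (0.0700).

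The 7 members with at least 1 CPM in every library were compared with each other and with 11793 genes by the shape of their profile: the root mean square (RMS) difference between centred log2 CPM values over the 7 libraries, which share depth and population. Among the members the nearest pairs were Itpr3 and Ascl3 (0.31), Foxi1 and Ascl3 (0.36), and Trpm5 and Pou2f3 (0.46). The farthest were Cftr and Coch (1.74) and Pou2f3 and Coch (1.67), so Coch stood away both from the tuft regulator and from the ion channel of its own group. Over all genes the nearest to each were Ube2w (0.06) and Ift57 (0.07) for Trpm5, Rps10 (0.09) and Igf1r (0.11) for Itpr3, Dusp14 (0.08) and Tom1 (0.11) for Pou2f3, Ccdc9b (0.14) and Plagl2 (0.15) for Foxi1, Ptp4a1 (0.13) and Atp7b (0.13) for Ascl3, Epn3 (0.09) and Lyn (0.10) for Cftr, and Kif19a (0.22) and Myo7a (0.25) for Coch. Rps10 is uncertain, as ribosomal protein genes have near-identical copies. The nearest genes of Coch were further from it than those of any other of the 7 members. Kif19a ran at 33.6, 47.4 and 94.9 CPM in the mature neurons of P2, P7 and P16 and at 208 to 302 CPM in progenitors. Dusp14 followed Pou2f3 at 280, 304 and 408 CPM in mature neurons and 138, 118, 154 and 199 CPM in progenitors in order of age.

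The members also ran beside markers of other cell types to different degrees. Pou2f3 per 10000 TPM of summed mature neuron markers was 8.04, 6.99 and 7.50 TPM in mature neurons and 7.26, 8.27, 7.02 and 10.2 TPM in progenitors, in order of age. The highest of these was 1.46 times the lowest, against 3.12 times for Pou2f3 alone, and this was the narrowest range of Pou2f3 over the 8 marker lists. The populations overlapped in that ratio. Over the respiratory epithelium markers, also higher in mature neurons, the range of Pou2f3 narrowed as well, to 1.89 times. Cftr per 10000 TPM of sustentacular markers was 3.75, 3.36 and 2.83 TPM in mature neurons and 3.47, 2.22, 2.93 and 2.23 TPM in progenitors, and the highest was 1.69 times the lowest, against 3.56 times for Cftr alone. For Coch the narrowest ratio, to the horizontal basal cell markers, still ranged 11.9 times, more than the 10.6 times of Coch alone. These ratios are descriptions over 7 libraries chosen by their values, and the part of RNA from those cell types in the members' values was not tested.

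**Figure D4:**
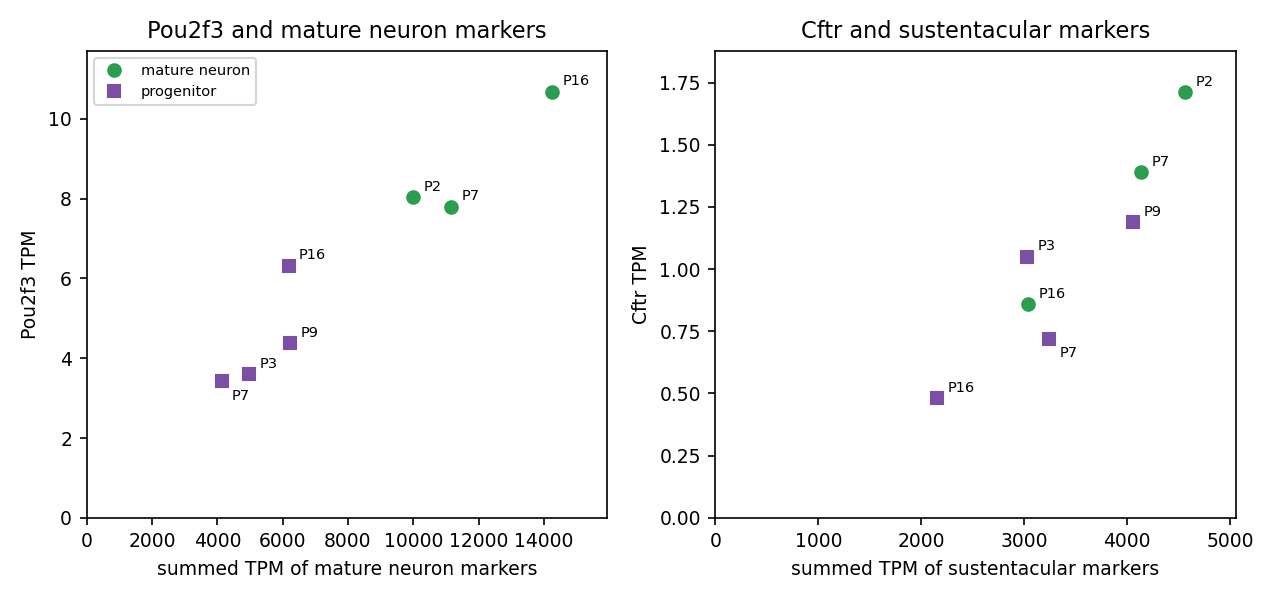
TPM of Pou2f3 against the summed TPM of 11 mature neuron markers (left) and of Cftr against that of 7 sustentacular markers (right), both axes linear from 0; circles are mature neuron and squares progenitor libraries, each labelled with its postnatal day. Pou2f3 per marker TPM stays within 1.46 times and Cftr within 1.69 times over the 7 libraries.

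Of the 4 ionocyte members Coch held most of the summed level, which was 15.9 to 37.7 TPM in mature neurons and 63.6 to 99.8 TPM in progenitors, while Foxi1, Ascl3 and Cftr did not pass the test. Without the P16 libraries of both populations, the libraries in which leukocyte markers were highest, a fit added after seeing the data, 7 members passed the filter, Plcb2 being left out. Of these, 3 were higher in mature neurons (Pou2f3, Trpm5 with log2 0.52 and edgeR adjusted p = 0.0346, and Cftr with log2 0.77 and adjusted p = 0.0343) and 2 were lower, beside 5262 higher and 5251 lower among all 18209 genes tested there.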

How the data were processed

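Poly(A) RNA of the 7 sorted pools was extracted with TRIzol and made into TruSeq Stranded libraries, per the labels' protocols. Tools named in the submitters' processing notes are STAR 2.6.1c, RSEM and bcl2fastq 2.18, with the build mm10 (GRCm38). For annotation release and strand setting, nothing is given in the sources used here. The authors deposited whole-number read counts per gene, with multi-mapping reads kept apart, and TPM values; entries naming no gene (23.5% to 27.2% of a library) were left out. No value column was left without a sample. Of the gene IDs, 54409 matched the reference table.

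Counts were tested with edgeR 4.0.16 (quasi-likelihood, TMM, filterByExpr, Benjamini-Hochberg over all tested genes at 0.05) in R 4.3.3, with 5 residual degrees of freedom for population, 4 for age and 3 for the difference of slopes. DESeq2 1.42.0 and limma 3.58.1 on log2(TPM + 1) or log2(TPM + 0.1), for genes with at least 0.5 TPM in 3 libraries, were alternatives. Adding 1 to a TPM value understates the fold of a low gene. The edgeR fits were also run on simulated counts with the same spread for every gene, a setting simpler than these data. That run checked the code and says nothing of the results here. Loci are from GENCODE M21. Intervals and the floor of 3 counts cover counting error only.

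The members and gene lists were chosen with earlier results of these data known. Named are the members, Omp and Neurog1, up to 5 called genes with the smallest p per list, and the 2 genes nearest each member by profile; olfactory receptors and genes named Gm with digits or Rik were left out of the last. Genes at 0, opposite-strand partners and marker ratios were named after their values were seen.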

Additional observations from a re-analysis of the deposited data

Results flagged for a closer look

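Trpm5 in the P16 progenitors, at 4.66 CPM, lay apart from the other 3 progenitor libraries at 3.48 to 3.65 CPM. The gap to the nearest library was 0.858 of the whole range of the 4, above Dixon's 95% critical value for a group of 4. Chance alone marks about 1 in 20 groups in this way. All 10 members were screened, and Trpm5 was the only one above the critical value. Among 10 screened genes a flag can thus arise by chance alone. The 4 libraries also differ in age, and their Trpm5 values rest on 94 to 124 counts each.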

How the results depend on the processing

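Pou2f3 and Coch kept their direction and call in all 16 alternatives, with log2 folds of 0.87 to 1.34 and -2.71 to -1.55. Itpr3 missed the threshold with limma on log2(TPM + 1) without a filter (log2 -0.39, adjusted p = 0.0542) and with edgeR on P7 and P16 alone with age as a block (log2 -0.47, adjusted p = 0.211). That block raised Cftr to a log2 of 0.97 (adjusted p = 0.0334). Members higher and lower numbered 2 and 1 with the block, and 1 lower with limma without a filter. Without the P16 libraries, an alternative chosen after seeing the data, 3 members were higher, with Trpm5 at 0.52 and Cftr at 0.77.

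Leaving out 1 library gave 1 to 2 members higher and 1 to 2 lower. The log2 folds ranged from 0.33 to 0.48 for Trpm5, -1.38 to 0.31 for Plcb2, -0.87 to -0.55 for Itpr3, -0.90 to -0.32 for Foxi1 and 0.45 to 0.96 for Cftr. Plcb2 had a value in 5 of the 7 such fits, since the filter removed it without the P9 or P16 progenitors, and changed sign without the P2 or P7 mature neuron library.

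For the age slope, edgeR's counts of 0 rising and 0 falling genes became 658 and 865 with DESeq2, 315 and 455 without a low count filter and 438 and 686 with the day unlogged. In each of these 1 member, Coch, rose. Leaving out 1 library gave 0 to 367 rising and 0 to 619 falling genes and 0 to 1 rising members, the highest without P7 mature neurons. The slope of Ascl3 changed sign with DESeq2 (0.0047) and RLE factors (0.0036), and ranged from -0.12 to 0.13 over the left-out libraries. Those of Trpm5 (-0.0084 to 0.12), Itpr3 (-0.12 to 0.15) and Foxi1 (-0.29 to 0.033) also crossed 0. DESeq2 called 7 genes with a higher and 4 with a lower slope in mature neurons, against 0 and 0. The cause of these changes was not tested. Below about 20 counts per library (Chat, Gnat3, Plcb2), only several-fold differences could be seen. The labels give no replicate numbers; the age block paired the populations at the 2 ages they share.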
